A study of Mus musculus with 2 samples.

Results

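Promoters of long noncoding RNA (lncRNA) genes were examined as the starts of 7205 GENCODE M21 genes on chromosomes 1 to 19 of the mouse assembly GRCm38 (mm10). Of 9330 genes of the annotated lncRNA types, 8639 lay on these chromosomes, and 1434 of those were set aside because a protein-coding transcript started within 1000 bp. The 7205 starts comprised 4850 lincRNA, 2038 antisense, 311 sense_intronic and 6 bidirectional_promoter_lncRNA genes. They are part of 29446 starts measured in the same way, of which 20807 belong to protein-coding genes. A start was called open in a library when a peak of the larger deposited list overlapped the 500 bp on either side of it, and the strongest of those peaks gave its value.

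The measurements came from DNase-seq, in which DNase I cuts accessible DNA and sites rich in cuts are called as peaks. The 2 libraries were made from cerebellum of male B6CASTF1/J mice at 4 days of age, with 3 males named for each library and no treatment named for either. Both carry the hybrid background, and sequences shown here are those of the reference strain. The libraries are labelled biological replicates 1 and 2 and form 1 group, so conditions could not be compared, and no test was made because starts within a library are not replicates. In bulk tissue, a site open in fewer cells and a site less open in each cell cannot be told apart.

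An lncRNA is an RNA polymerase II transcript without a long open reading frame. Some lncRNAs build nuclear bodies, some silence imprinted genes in cis, and others are processed into snoRNAs or microRNAs. Many annotated lncRNAs are known from few cDNAs, are present at low levels and in few cell types, and start outside CpG islands, which are the stretches rich in CpG dinucleotides where most protein-coding promoters lie. Some start at enhancers.

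The libraries stood apart in 2 respects that touch the counts below. Replicate 1 had 61896 peaks and replicate 2 had 131518; read totals were not analysed here, so the depth is unknown. Sequencing on a NovaSeq 6000 and a HiSeq 4000 is recorded for replicate 1, and no instrument was given for replicate 2 in the sources used here. Marker gene counts stand beside all coding starts, of which 55.2% were open in both, 56.2% in replicate 1 and 61.5% in replicate 2. Open in both were 4 of 6 granule cell lineage genes, 5 of 6 Purkinje cell genes and 3 of 5 GABAergic interneuron genes. Pax2 and Ptf1a had no peak in either. So were 4 of 5 oligodendrocyte lineage genes, 1 of 5 choroid plexus genes and 0 of 5 endothelial genes. With so few genes per list, these counts do not set cerebellar genes apart from coding genes at large. Of 8 forebrain genes, 3 had a peak in replicate 1 and 7 in replicate 2, with summed values of 3.04 and 14.9, and Nkx2-1 had none in either. Those of astrocytes and Bergmann glia had a peak at 3 of 6 in replicate 1 and 6 of 6 in replicate 2, with summed values of 4.17 and 9.07. The summed values of midbrain and hindbrain organiser genes were 2.72 and 1.78, with Gbx2 open in replicate 1 only, and meningeal and fibroblast genes had a peak at 1 of 5 and 3 of 5. The 5 microglial and the 5 red blood cell genes had no peak in either library. The part of these marker signals in the differences between libraries at lncRNA starts was not tested.

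The sequences of 8 peaks show the range of open lncRNA starts. They are the peaks of replicate 1, or the central 240 bp for 1700096K18Rik, read from GRCm38 and printed on the strand of the gene. Capitals mark bases inside footprints of both libraries, which are the short protected stretches the authors called inside open DNA. The first pair are among the strongest starts, the next pair are the strongest of 2 gene lists, the next 3 have few CpGs for their strength, and the last is the only listed Hox cluster lncRNA open in both libraries.
Gm15408 (chr5:149006821-149006980, plus strand): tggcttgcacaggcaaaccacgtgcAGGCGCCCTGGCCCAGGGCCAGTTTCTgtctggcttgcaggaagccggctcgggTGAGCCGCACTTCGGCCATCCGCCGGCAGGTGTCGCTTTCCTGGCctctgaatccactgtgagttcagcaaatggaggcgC
1700096K18Rik (chr5:25529621-25529860, plus strand): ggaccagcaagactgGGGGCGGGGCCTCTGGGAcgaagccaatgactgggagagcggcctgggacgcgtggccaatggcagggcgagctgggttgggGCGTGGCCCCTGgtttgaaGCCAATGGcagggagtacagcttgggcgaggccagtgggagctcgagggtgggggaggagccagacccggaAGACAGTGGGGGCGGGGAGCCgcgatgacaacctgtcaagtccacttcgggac
1700020I14Rik (chr2:119594181-119594360, plus strand): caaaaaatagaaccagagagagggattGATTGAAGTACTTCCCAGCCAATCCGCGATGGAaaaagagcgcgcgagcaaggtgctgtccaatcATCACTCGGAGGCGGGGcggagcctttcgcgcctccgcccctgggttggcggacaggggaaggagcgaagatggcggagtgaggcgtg
Nespas (chr2:174295401-174295600, minus strand): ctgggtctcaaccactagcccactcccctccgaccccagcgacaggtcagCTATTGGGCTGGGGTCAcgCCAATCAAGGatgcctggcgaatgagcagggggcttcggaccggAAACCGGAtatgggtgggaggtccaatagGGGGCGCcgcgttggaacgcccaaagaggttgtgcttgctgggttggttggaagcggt
Gm35326 (chr12:97872521-97872680, minus strand): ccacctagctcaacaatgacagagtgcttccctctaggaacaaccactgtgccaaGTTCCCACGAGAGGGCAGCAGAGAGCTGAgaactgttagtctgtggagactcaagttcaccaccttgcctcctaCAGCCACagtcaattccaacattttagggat
Gm831 (chr4:131486881-131487080, plus strand): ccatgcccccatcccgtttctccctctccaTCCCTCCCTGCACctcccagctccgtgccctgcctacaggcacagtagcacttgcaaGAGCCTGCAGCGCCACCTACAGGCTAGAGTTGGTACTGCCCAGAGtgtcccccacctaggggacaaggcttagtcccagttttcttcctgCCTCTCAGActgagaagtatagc
A730011C13Rik (chr3:94997061-94997220, minus strand): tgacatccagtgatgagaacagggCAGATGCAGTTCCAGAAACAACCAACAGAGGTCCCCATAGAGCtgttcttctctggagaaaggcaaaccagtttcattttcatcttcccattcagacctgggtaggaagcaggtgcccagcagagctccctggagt
Hoxd3os1 (chr2:74715841-74716040, minus strand): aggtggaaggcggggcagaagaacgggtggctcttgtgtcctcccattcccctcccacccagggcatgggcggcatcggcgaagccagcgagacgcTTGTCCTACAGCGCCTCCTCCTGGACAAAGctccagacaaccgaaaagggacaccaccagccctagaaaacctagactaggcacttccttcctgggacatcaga
The Gm15408 peak held 73 bases in footprints of both libraries, the most of the 8, and 10 CpGs in its 160 bp. In 1700096K18Rik, GGGGCGGGG, the consensus of the SP and KLF zinc finger factors, occurred at 2 places, and all 9 bases of each lay in footprints of both libraries. The consensus of NFY, AGCCAATC, lay wholly in such a footprint in 1700020I14Rik. Gm35326 had 1 CpG in 160 bp and Gm831 had 3 in 200 bp. In both, and in Hoxd3os1, a match to the CTCF consensus had all 12 bases in footprints of both libraries. CTCF is a zinc finger protein that marks chromatin loop anchors and insulators. A CTCF match in Nespas had 5 of 12 bases in such footprints, and A730011C13Rik, whose 160 bp held no CpG, had 43 footprint bases and no match to any of the 11 consensus sequences searched.

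Most lncRNA starts had no peak. A peak was present in both libraries at 662 of 7205 starts (9.19%), in replicate 1 at 737 (10.2%) and in replicate 2 at 1380 (19.2%). Across all 29446 starts the corresponding shares were 44.5%, 45.6% and 51.9%. Protein-coding starts were open in both libraries at 11476 of 20807 (55.2%), a difference of 46.0 percentage points (45.9 in replicate 1 and 42.3 in replicate 2). The lncRNA starts set aside near coding starts were open in both at 67.3%. For a genome average, a window of the same length was placed at every position of these chromosomes. It touched a peak of both libraries at 1.87% of positions, a peak of replicate 1 at 2.39% and a peak of replicate 2 at 5.31%. The lncRNA starts as a whole therefore lay between the genome at large and coding starts in each library. The 1122 lncRNA starts with 0 to 5 CpGs within 500 bp lay below the genome average. Their shares were 0.713% in both libraries, 1.07% in replicate 1 and 4.46% in replicate 2.

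Peaks gathered at the annotated start itself. Among the 4914 lncRNA starts over 20 kb from any coding start, a peak lay within 100 bp of the start at 5.64% in replicate 1 and 11.9% in replicate 2. From 5 to 10 kb on either side the median share was 0.773% in replicate 1 (range 0.549 to 1.1%) and 2.0% in replicate 2 (range 1.51 to 2.5%). The highest share of the profile was at the start in both libraries. At coding starts it was 49.0% and 54.8%, against flank medians of 1.5% and 2.45%.

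**Figure D1:**
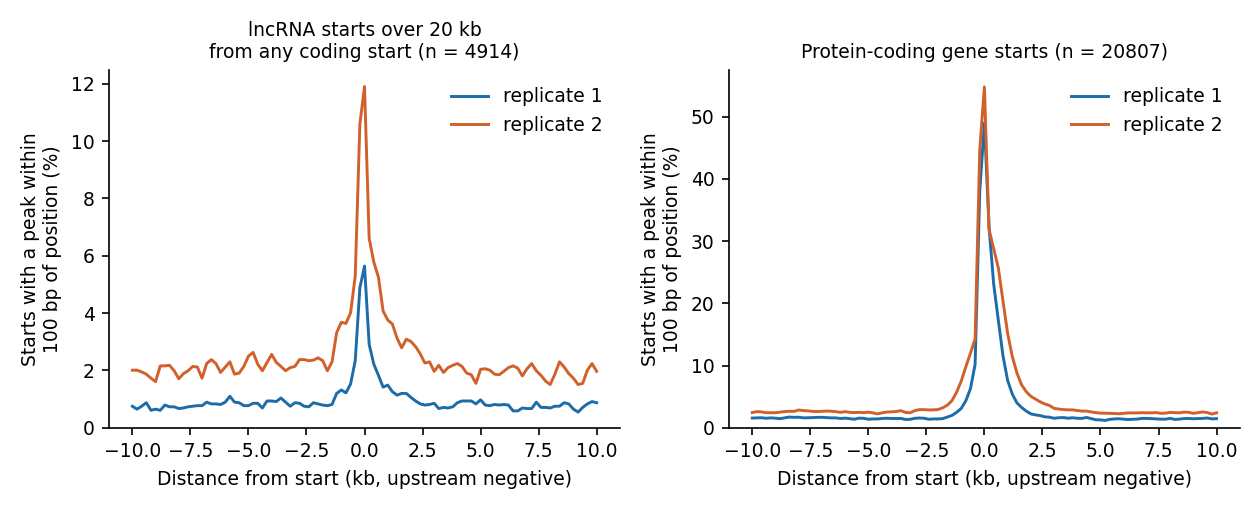
Share of starts with a peak within 100 bp of each position (y, percent) against distance from the start (x, kb, oriented by gene strand), for lncRNA starts over 20 kb from coding starts (left) and coding starts (right, on its own y scale), 1 line per library. The lncRNA profile reaches 5.64% in replicate 1 and 11.9% in replicate 2 at the start and falls to flank medians of 0.773% and 2.0%.

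Open lncRNA starts were shared unequally between the libraries. Of those open in replicate 1, 89.8% were open in replicate 2, whereas 48.0% of those open in replicate 2 were open in replicate 1. For coding starts the shares were 98.2% and 89.8%. There were 75 lncRNA starts open in replicate 1 alone (1.04%; 1.1% over all starts), 718 in replicate 2 alone (9.97%; 7.36% over all starts) and 5750 in neither (79.8%; 47.0% over all starts). When the strongest 62073 peaks of replicate 2 were kept, near the 61896 of replicate 1 (ties at the limit were kept), 822 starts were open in replicate 2 and 580 in both. The starts open in replicate 2 alone then numbered 242 and those open in replicate 1 alone 157, and 70.6% of the starts open in replicate 2 and 78.7% of those open in replicate 1 were open in both. The 662 shared starts used 643 distinct peaks in each library, because 38 starts shared a strongest peak with another.

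The other deposited readouts gave the same ordering, but they come from the same libraries and are not independent of the peaks. They are therefore no separate support for it. A peak of the stricter deposited list was present in both libraries at 417 lncRNA starts (5.79%; 38.6% of all starts and 48.7% of coding starts). At least 1 footprint in each library lay within 500 bp of 579 lncRNA starts (8.04%; 41.8% of all starts and 52.2% of coding starts). Intervals with a false discovery rate under 0.05 for the cut rate were present at 11.2% of lncRNA starts in replicate 1 and 20.5% in replicate 2, against 46.9% and 53.1% of all starts. Of the 718 starts open in replicate 2 alone, 42 (5.85%) had such an interval in replicate 1. Most of these starts thus carried no replicate 1 signal under that limit.

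CpG content separated open from closed starts. The median number of CpG dinucleotides within 500 bp was 26 at lncRNA starts open in both libraries, 15 at those open in replicate 2 alone, 16 at those open in replicate 1 alone and 11 at those with no peak. All lncRNA starts had a median of 12 and coding starts one of 43. All starts were divided into 10 classes by CpG number. In the lowest class, with 0 to 5 CpGs, 0.713% of lncRNA and 0.283% of coding starts were open in both libraries. In the third, with 9 to 11, the shares were 2.97% and 2.86%. The 2 kinds of start parted above that, with 11.6% against 19.8% at 17 to 23 CpGs, 25% against 55.6% at 24 to 39, and 62.0% against 84.2% at 40 to 54. In the highest class, with 88 to 172 CpGs, 30 of 36 lncRNA starts (83.3%) and 94.5% of coding starts were open.

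Within each class of 12 or more CpGs the gap between lncRNA and coding starts was smaller than over all starts, and present. The lower 5 classes held 86.8% of lncRNA starts and 37.4% of coding starts. With coding shares weighted by the number of lncRNA starts in each class, 14.3% would be open, against the 9.19% observed. In the upper 5 classes 371 of 948 lncRNA starts (39.1%) and 84.7% of coding starts were open in both libraries. Of the lncRNA starts open in both, 291 (44.0%) lay in the lower 5 classes, compared with 3.95% of open coding starts. In replicate 2 the lncRNA share exceeded the coding share in the lowest 3 classes, at 4.46% against 1.74%, 8.73% against 6.34% and 11.9% against 9.03%.

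**Figure D2:**
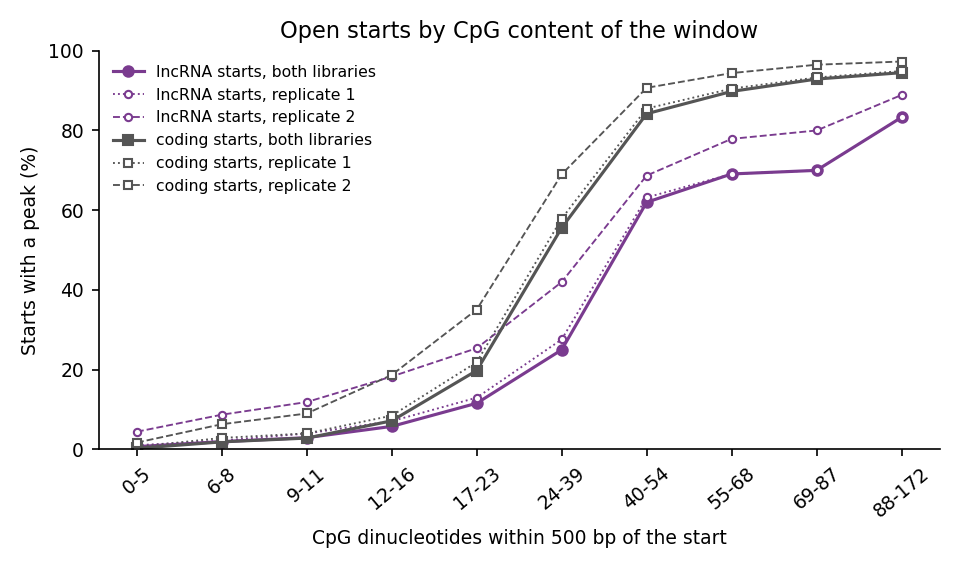
Share of starts with a peak (y, percent) in 10 classes of CpG number within 500 bp of the start (x), for lncRNA starts (circles) and coding starts (squares), in both libraries and in each. At 9 to 11 CpGs the shares open in both libraries are 2.97% and 2.86%, and the lines for both libraries are furthest apart at 24 to 39 (25% and 55.6%); in replicate 2 the lncRNA line is above the coding line in the lowest 3 classes.

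The share of open starts varied with the genomic setting. Starts within an exon of a coding gene were open in both libraries at 12.8% (44 of 344), within an intron at 7.18% (133 of 1853) and outside coding genes at 9.68% (485 of 5008). By type, lincRNA starts were open at 9.51%, antisense at 9.18% and sense_intronic at 4.18%. By distance from the nearest coding start, the share was highest at 1000 to 2000 bp (23.9%), 11.3% at 2000 to 5000 bp and lowest beyond 100000 bp (6.2%). In the lower 5 CpG classes it was 4.61% up to 20000 bp and 4.67% beyond, and in the upper 5 classes 42.8% and 35.9%. Starts whose first base lay in a masked repeat were open at 3.55% and the others at 10.7%, and the order was the same in the lower (2.12% and 5.36%) and upper CpG classes (18.6% and 42.4%).

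The share also differed by annotation. Genes whose best transcript support level was 1 were open in both libraries at 11.5%, level 2 at 11.4%, level 3 at 7.69% and level 5 at 5.32%, and the 1723 genes with no level at 8.65%. The share was 7.46% for genes with 1 transcript, 14.2% with 2 and 23.9% (32 of 134) with 5 or more. The number of exons showed a smaller spread, from 8.71% at 2 exons to 10.3% at 5 or more. Genes whose symbol is not a clone or accession name were open at 14.7% (53 of 360) and the rest at 8.9%. Across chromosomes the share ran from 5.87% (chromosome 8) to 15.8% (chromosome 17). Of the 7205 starts, 359 lay within 1000 bp of a non-coding transcript start of a coding gene or of a RefSeq mRNA start, and 24.8% of these were open in both libraries. Without them the share was 8.37% (573 of 6846).

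The lncRNA starts were also divided by the state of the nearest coding gene's start. Where the nearest coding gene's own start was open in both libraries, 450 of 4703 lncRNA starts were open in both (9.57%). Where it had no peak in either, the count was 160 of 1847 (8.66%). Within 20000 bp the shares were 13.8% and 9.34%. In the upper 5 CpG classes they were 52.6% and 27.1% up to 20000 bp, and 34.8% and 42.7% beyond. In the lower 5 classes they were 4.48% and 5.23% up to 20000 bp, and 4.82% and 3.77% beyond. The order thus depended on both distance and CpG class.

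Open lncRNA starts had weaker peaks than open coding starts. Among the 662 open in both libraries, the value (the authors' depth-normalised signal) had a median of 1.05 in replicate 1 (quartiles 0.722 and 1.69) and 1.89 in replicate 2 (0.994 and 3.3). Coding starts open in both had medians of 2.2 and 4.6. Starts open in 1 library only were weaker still, with medians of 0.413 in replicate 1 and 0.526 in replicate 2. Values were higher in replicate 2 at 545 of the 662 lncRNA starts (82.3%), with a median log2 difference, replicate 2 minus replicate 1, of 0.68 (SD over starts 0.70). At coding starts the median was 1.02 (SD 0.61), a general offset between the libraries against which single differences should be read. The strongest peaks of the libraries overlapped at 623 of the 662 lncRNA starts (94.1%), where the median difference was 0.70. The medians moved with peak strength. In the weakest of 5 strength classes the medians were 0.34 for 321 lncRNA starts and 0.24 for coding starts, and in the strongest they were 1.19 for 29 lncRNA starts and 1.32 for coding starts.

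The peaks at lncRNA starts were also less tightly placed. Their centres lay upstream of the start, at median offsets of -39.75 bp in replicate 1 and -43.0 bp in replicate 2. The centre was within 100 bp of the start at 38.4% and 41.2%, against 61.4% and 63.1% for coding starts. The median peak width was 188 and 200 bp, against 220 bp in both libraries at coding starts. Within 500 bp, the median number of footprints was 2 and 3 at lncRNA starts and 3 and 5 at coding starts.

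**Figure D3:**
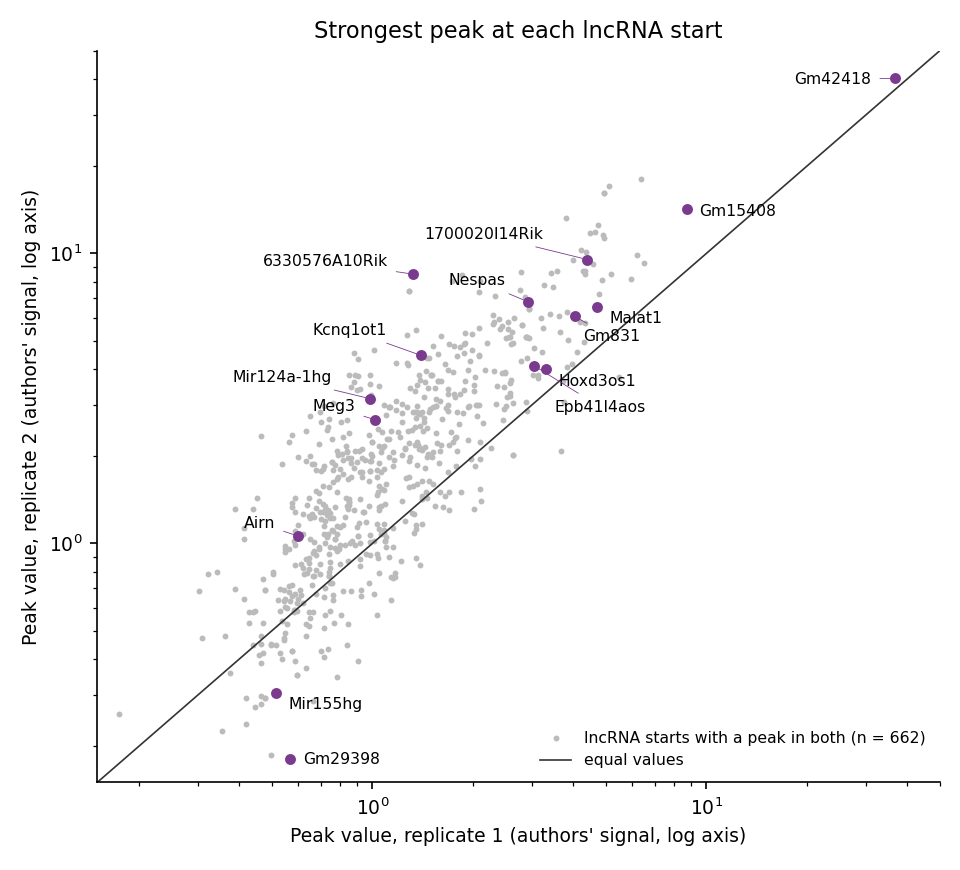
Value of the strongest peak in replicate 2 (y) against replicate 1 (x), both the authors' signal on log axes, for the 662 lncRNA starts with a peak in both libraries. Most points (545) lie above the line of equal values; Gm42418 stands alone at 36.6 and 40.2.

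The strongest starts were ranked by the mean of their percentile ranks in the libraries. Gm42418 (chromosome 17, 39846958 to 39848788, plus strand) came first, at 36.6 in replicate 1 and 40.2 in replicate 2. RefSeq lists this locus as the ribosomal RNA related sequence Rn18s-rs5. Ribosomal RNA genes are present in many near-identical copies, so the origin of its reads is uncertain. Its peak was narrow for its height, with 140 bases under the false discovery rate limit in each library. Tmem250-ps had 6.39 and 18.1, but its start lies 15 bp from a RefSeq mRNA start, so its peak cannot be assigned to the lncRNA alone.

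The next were Gm15408 at 8.73 and 14.2, and 1700096K18Rik at 5.1 and 17.1, with peak sequences shown above. Gm12758 and Gm12762 start on opposite strands of chromosome 7 (34234377 and 34234102) and share 1 peak, at 4.93 and 16.1. Gm11205 stood at 6.22 and 9.87, Snhg7os at 6.5 and 9.29, 9430037G07Rik at 4.93 and 11.3, and 6720427I07Rik at 4.75 and 12.5. Every one of these 10 starts had a stricter peak in both libraries, and 9 of them had 50 or more CpGs within 500 bp. The exception was Gm15408, with 27.

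Hosts of small RNAs come first among the named lncRNAs. The snoRNA host genes carry snoRNAs, which guide ribosomal RNA modification, in their introns. Of 21 listed symbols, 4 were in the set, and 3 of these were open in both libraries, beside 9.19% of all lncRNA starts. Snhg6 had 1.88 in replicate 1 and 4.86 in replicate 2. Snhg12 had 1.88 and 4.52, and Epb41l4aos had 3.05 and 4.1, while Snhg20 had no peak. The 3 open starts had 48 to 65 CpGs within 500 bp, and Snhg20 had 21. The peak centres of Snhg6 and Snhg12 lay within 60 bp of the annotated start in both libraries.

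The list drawn up for microRNA hosts had 11 members, of which 5 were open in both libraries and 2 in replicate 2 alone. Over all lncRNA starts these shares were 9.19% and 9.97%. The 5 open in both had 26 to 81 CpGs within 500 bp. The list includes Mirt1 and Mirt2, which are named for myocardial infarction and are not counted as microRNA hosts, and both had no peak. Mir124a-1hg and Mir124-2hg both yield miR-124, the abundant microRNA of neurons. Mir124a-1hg had 0.981 in replicate 1 and 3.16 in replicate 2, and Mir124-2hg had no peak in replicate 1 and 1.94 in replicate 2. Mir9-3hg, a host of the neural progenitor microRNA miR-9, had 1.36 and 1.87, with 7 footprints in replicate 1 and 12 in replicate 2. Mir670hg had 0.813 and 2.04. In Mir124a-1hg and Mir670hg the strongest peak was not the same one in the libraries, with centres at -189.0 and 559.5 bp for the former and at -417.0 and 57.5 bp for the latter. Of the rest, Lncpint, a p53-responsive lncRNA, had 0.555 and 0.599. Mir17hg, the host of the proliferation-linked miR-17-92 cluster, had 2.29 in replicate 2 alone, from a peak at the upstream edge of the window, centred at -618.5 bp, and replicate 1 had bases under the false discovery rate limit there without a peak. Mir155hg, which hosts a microRNA of activated immune cells, was low in both at 0.516 and 0.306. Mir142hg, a host of blood cell microRNAs, had none, nor did Mir133a-1hg, whose microRNA belongs to muscle.

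Imprinted lncRNAs are made from 1 parental allele. Of the 7 in the set, 5 were open in both libraries, beside 9.19% of all lncRNA starts. These 5 had 32 to 46 CpGs within 500 bp. Of all lncRNA starts with 24 to 39 CpGs, 25% were open in both, and of those with 40 to 54, 62.0%. Nespas, antisense in the Gnas locus, had 2.92 in replicate 1 and 6.82 in replicate 2. Peg13, inside an intron of Trappc9, had 1.52 and 4.78. Kcnq1ot1, the antisense RNA that silences neighbours of Kcnq1 in cis, had 1.4 and 4.45. Meg3, from the Dlk1 domain, had 1.02 and 2.67. Airn, the antisense RNA of Igf2r, was the lowest of the 5 at 0.6 and 1.06, from peaks centred at 411.0 and 19.5 bp. H19, a fetal growth-linked RNA that is high in mesoderm and endoderm, had 0.359 in replicate 2 alone, and Mirg had no peak. The log2 differences of the 5 open in both ran from 0.82 (Airn) to 1.67 (Kcnq1ot1). The files do not separate the parental alleles.

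Nuclear and broadly expressed lncRNAs had 7 of 9 starts open in both libraries, beside 9.19% of all lncRNA starts. These 7 had 27 to 66 CpGs within 500 bp. The share of all lncRNA starts open in both was 25% at 24 to 39 CpGs and 69.1% at 55 to 68. Malat1, a nuclear speckle RNA, had 4.69 in replicate 1 and 6.56 in replicate 2. Neat1, the scaffold of paraspeckles, had 2.95 and 6.41, from a peak centred more than 400 bp upstream of the annotated start in both libraries. 1700020I14Rik, at 4.4 and 9.53, was the strongest of the list by mean percentile rank and in replicate 2, and Malat1 was higher in replicate 1. Miat, a neuronal nuclear RNA, had 1.28 and 2.45, from peaks centred at 530.0 and 454.5 bp. Lockd, a neighbour of the cell cycle inhibitor gene Cdkn1b, had 1.23 and 3.03, from peaks centred at -511.5 and -501.5 bp. 2900097C17Rik had 1.37 and 2.19, and Pvt1, next to Myc, had 0.703 and 1.21. Trp53cor1, the p53 target near Cdkn1a, had 0.579 in replicate 2 alone, and Gm26917 had none. Gm26917 (39843013 to 39846341) lies beside Gm42418 on chromosome 17, the ribosomal RNA related locus above, and how well reads can be placed there was not tested.

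The remaining lists were small, and their counts stand beside a share of 9.19% open in both libraries over all lncRNA starts. Among 7 neighbours of neural transcription factor genes, none was open in both libraries. Rmst, a regulator of neuronal differentiation, had 0.477 in replicate 1 alone, and Otx2os1 had 0.452 in replicate 2 alone. Dlx1as, Dlx6os1, Pax6os1, Nkx2-2os and Evx1os had no peak in either. Of 5 lncRNAs of heart, muscle, lung and mesoderm, Bvht had 0.479 in replicate 2 alone and the other 4 had none. Of the 5 members of the list drawn up for immune and blood lncRNAs, Mir155hg alone had a peak. That list includes Dnm3os, antisense in an intron of Dnm3, which is not counted as an immune lncRNA here. The testis list kept 2 genes, both open in both libraries, 4933404O12Rik at 0.948 and 1.94 and 1700007F19Rik at 0.716 and 1.85.

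Of the 7 Hox cluster lncRNAs, 3 were open in replicate 1 and 1 in replicate 2, beside 10.2% and 19.2% of all lncRNA starts. Hox genes set position along the body axis in the hindbrain, spinal cord and trunk. Hoxd3os1, in an intron of the Hoxd3 and Hoxd4 locus, had 3.31 in replicate 1 and 4.0 in replicate 2. Hoxb3os had 0.755 and Hottip 0.219, both in replicate 1 alone, and Hotair, Hotairm1, Hoxb5os and Hoxaas3 had none.

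Over the 9 lists, 55 of 156 symbols were members, and 23 of them were open in both libraries, 3 in replicate 1 alone, 6 in replicate 2 alone and 23 in neither. Over all lncRNA starts 9.19% were open in both. The part of CpG number in the list counts was not tested. Of the other symbols, 49 were no gene of that name, 17 lay near a coding start, 4 were on other chromosomes and 31 were of another GENCODE type.

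**Figure D4:**
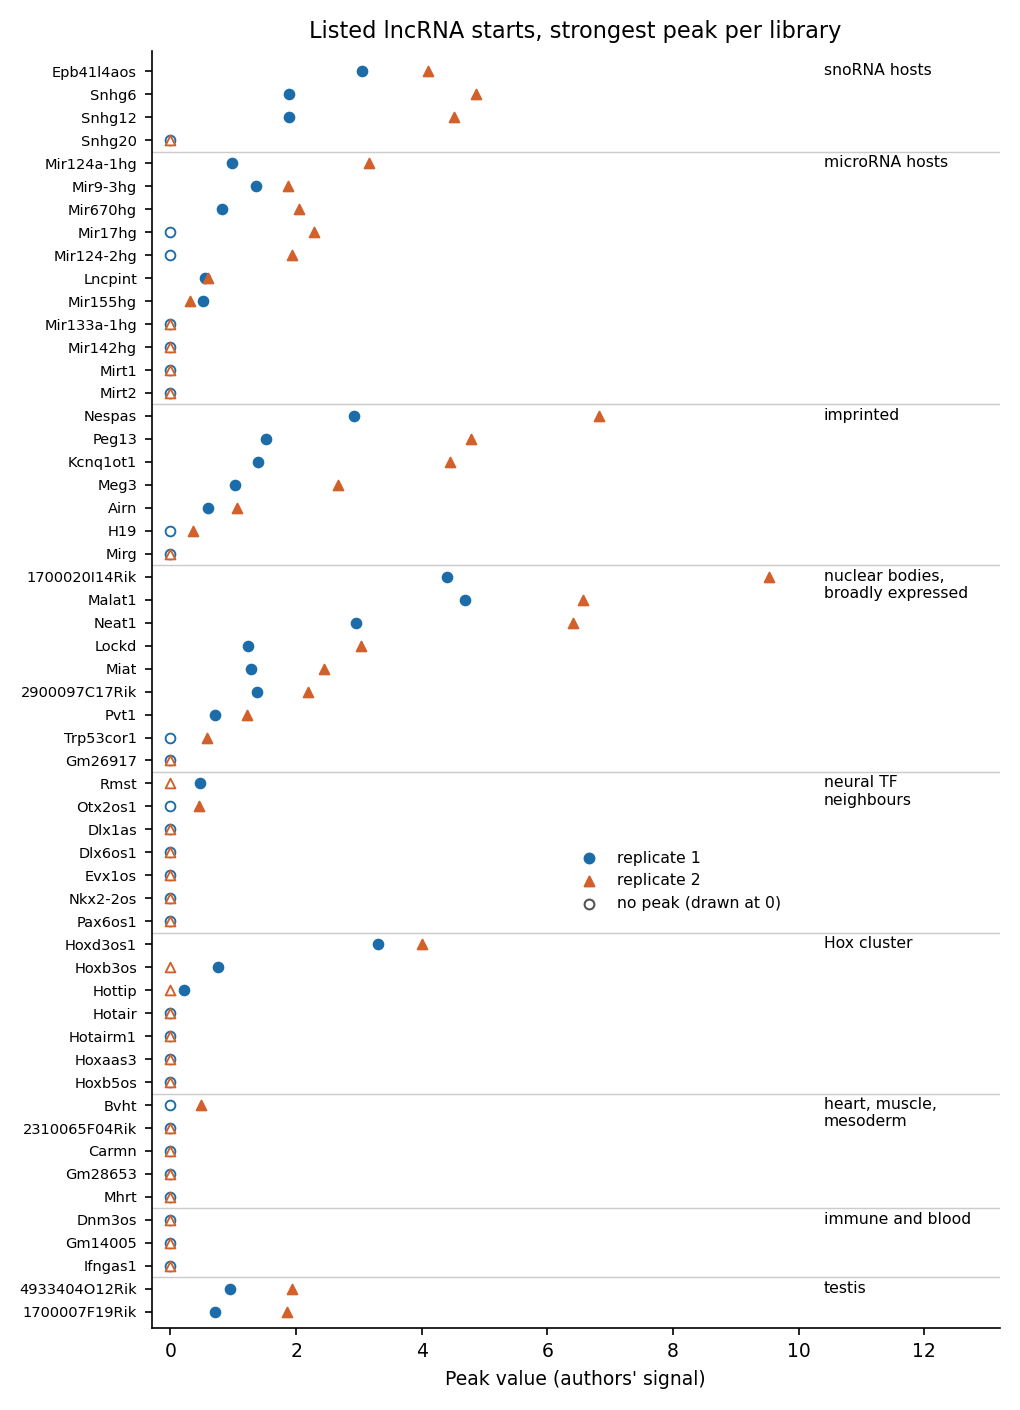
Value of the strongest peak (x, the authors' signal) at each listed lncRNA start (y), by list, in replicate 1 (circles) and replicate 2 (triangles), with open symbols at 0 where no peak was present. Small RNA hosts, imprinted and nuclear lncRNAs hold most of the peaks, and the peaks of the neural neighbour and mesoderm lists stay at or under 0.479. Mir142hg and Mir155hg, in 2 lists, are drawn once, and Mirt1 and Mirt2 of the microRNA list are not hosts.

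A few starts departed from the general offset between the libraries. Among starts open in both, 6330576A10Rik had 1.32 in replicate 1 and 8.49 in replicate 2, a log2 difference of 2.69. Gm34307 and Gm34354 start back to back on chromosome 13 and share a peak at 1.29 and 7.45. Gm45169 had 0.884 and 4.52, from different peaks (centres at 271.5 and -57.5 bp). Gm28151 had 0.464 and 2.35, from peaks at the edge of the window (centres at 515.5 and 538.5 bp). These 5 had 4 to 39 CpGs within 500 bp. At the other end, Gm29398 had 0.568 and 0.18, a log2 difference of -1.66, Gm4409 0.497 and 0.186, Gm9725 0.664 and 0.286 (from peaks that do not overlap), 4930463O16Rik 0.903 and 0.392, and Gm47887 0.781 and 0.346. These 5 were all under 1 in both libraries.

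Starts open in 1 library alone could still carry sizeable peaks. Gm28548 had 2.65 in replicate 1 and no peak in replicate 2. Gm15050, in an intron of Hoxa3, had 2.46 with 8 footprints in replicate 1 and neither a peak nor a footprint in replicate 2. A530040E14Rik, Gm13530 and Gm15966 followed at 1.0, 0.993 and 0.955. In replicate 2 alone, Gm14291, in an intron of Ptgis, had 4.69, and Gm3693, in an intron of Slc8a3, had 3.2. 1110015O18Rik had 3.07, from a peak at the edge of the window centred at -587.5 bp. 1500035N22Rik had 3.04 and Gm26739 had 2.99. None of the 5 had a base under the false discovery rate limit in replicate 1.

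Strong starts with few CpGs were found among the 200 strongest. Gm35326, with 4 CpGs within 500 bp, had 1.76 in replicate 1 and 3.28 in replicate 2. A730011C13Rik, with 7, had 2.01 and 3.35. Gm831, with 8, had 4.03 and 6.07, and lies 334319 bp from the nearest coding start, that of Ptpru. 1700025N23Rik, with 9, had 2.49 and 3.89, and AC118542.1, also with 9, had 1.5 and 3.81, and lies 578 bp from a RefSeq mRNA start. Their peaks lay off the annotated start, with centres from -216.5 to 251.5 bp in replicate 1 and none within 50 bp.

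The starts with the most footprints were broad and CpG-rich. 4932412D23Rik had 7 in replicate 1 and 16 in replicate 2, Gm11527 9 and 12, Sp3os 6 and 15, Gm26901 7 and 13, and Gm9530 5 and 14. Their CpG numbers ran from 56 to 129. The starts of 4932412D23Rik and Sp3os lie 73 and 143 bp from RefSeq mRNA starts.

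Sequence matches differed between open and closed lncRNA starts. Consensus matches were counted on both strands within 500 bp of each start, and matches of different consensus sequences may overlap. A match is a description of letters, not evidence of binding. The CTCF consensus occurred at 32.5% of lncRNA starts open in both libraries, 18.2% of those open in replicate 2 alone and 12.1% of those with no peak (14.6% of all lncRNA starts and 25.5% of all coding starts). At open coding starts it occurred at 33.9%. In the lower 5 CpG classes the shares were 36.1% at lncRNA starts open in both, 11.4% at those with no peak and 22.1% at open coding starts. In the upper 5 classes they were 29.6%, 20.6% and 34.3%, so the order of lncRNA and coding starts turned with CpG class.

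The CTCF match was also found in footprints more often than at coding starts. It lay in a footprint of both libraries at 93 of 662 open lncRNA starts (14%) and at 6.63% of open coding starts. In the lower CpG classes the shares were 17.2% and 8.17%, and in the upper classes 11.6% and 6.57%. The 93 starts had median values of 1.72 in replicate 1 and 2.98 in replicate 2, against 0.974 and 1.73 at the other 569. Their median log2 difference was 0.52, against 0.72. A stricter peak was present in both libraries at 90.3% of the 93 and 58.5% of the others. The median CpG number was 21 at the 93 and 27 at the others. The 93 were picked by footprints in both libraries, which were called inside open DNA. Of the 662 open starts, 91.2% had any footprint in replicate 1 and 93.1% in replicate 2. The values and stricter share of the 93 therefore depend on that choice and cannot be read as a trait of the CTCF match.

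Over all CpG classes, matches typical of CpG-rich promoters were less frequent at open lncRNA starts than at open coding starts. The SP and KLF consensus GGGGCGGGG occurred at 16.9% of open lncRNA starts, 3.5% of those with no peak and 35.9% of open coding starts (4.98% of all lncRNA and 23.4% of all coding starts). For ETS factors, CCGGAAGT occurred at 3.78% and 11.9% of open lncRNA and coding starts (2.18% and 7.26% of all). For YY1, AAGATGGCG occurred at 0.906% and 6.06% (1.25% and 3.6% of all), and at 1.37% of lncRNA starts with no peak. The NRF1 consensus occurred at 0.604% and 2.94% of open lncRNA and coding starts (0.167% and 1.71% of all). In the lower CpG classes the SP and KLF shares were close, at 9.28% of open lncRNA and 8.83% of open coding starts. In the upper classes they were 22.9% and 37.0%. There the ETS shares were 5.12% and 12.3%, and the YY1 shares 1.35% and 6.28%. YY1 matches occurred at 7.94% (34 of 428) of the lncRNA starts with no peak in the upper classes. In the lower classes the ETS shares were 2.06% of open lncRNA and 1.99% of open coding starts. The YY1 shares there were 0.344% and 0.662%, from 1 and 3 starts.

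The next matches were compared between starts open in replicate 2 alone, in both libraries and in neither. The E-box CAGATGG, bound by neural bHLH factors, occurred at 28.6% of them, 21.9% of those open in both and 20.4% of those with no peak (21.4% of all lncRNA and 15.3% of all coding starts). In the lower CpG classes the shares were 29.3%, 27.5% and 20.8%. The RFX palindrome occurred at 16 of 718 (2.23%), 5 of 662 (0.755%) and 28 of 5750 (0.487%) starts (0.68% of all lncRNA and 0.745% of all coding starts). The AP-1 site TGAGTCA, bound by FOS and JUN dimers, occurred at 18.8%, 13.6% and 18.7% (18.2% of all lncRNA and 12.1% of all coding starts). For AP-1 the starts open in replicate 2 alone were thus like those with no peak, while the RFX counts are small.

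**Figure D5:**
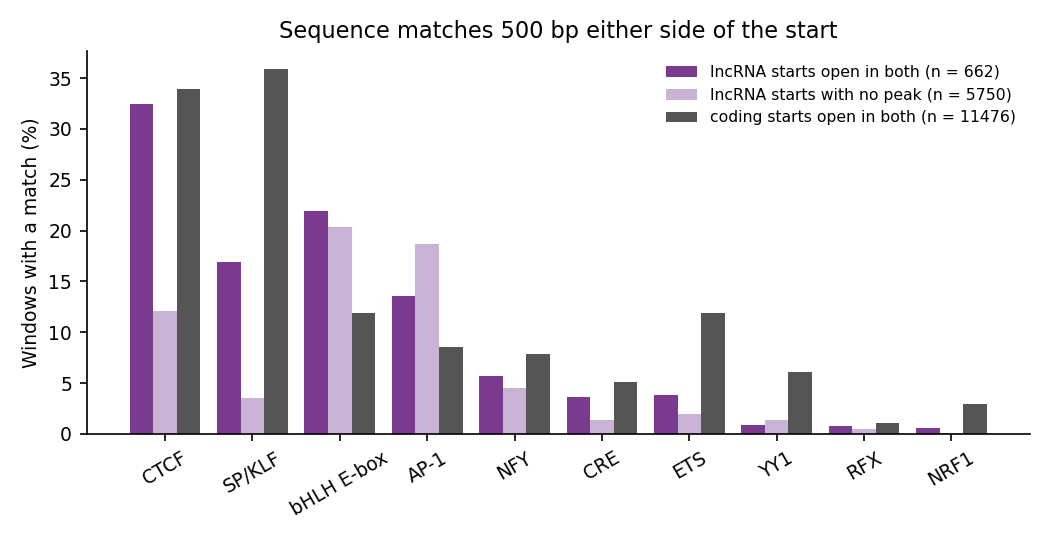
Share of starts with a consensus match within 500 bp (y, percent) for 10 of the consensus sequences searched (x), at lncRNA starts open in both libraries, lncRNA starts with no peak and coding starts open in both. The CTCF bars of open lncRNA and open coding starts are close (32.5% and 33.9%), whereas the SP/KLF bars are apart (16.9% and 35.9%).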

How the data were processed

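DNase-seq peaks of 2 cerebellum libraries were used as the authors deposited them, called per library on mm10, per the labels and the deposited description files. The peak value is the authors' depth-normalised signal; its factor, the read depth, the aligner and the callers were not given in the sources used here. False discovery rates of the cut rate (the authors' q-values) are deposited for intervals under 0.05, and footprints were used by position because their deposited p-value is constant. File coordinates fitted the chromosome lengths of GRCm38. Genes came from GENCODE M21, RefSeq mRNA starts and locus names from the RefSeq annotation of GRCm38.p6. Overlap needed 1 bp; CpG classes were cut at quantiles over lncRNA and coding starts. The overlap counting was tested on simulated intervals. Named genes were all members of 9 gene lists with a peak, the 10 strongest, and 5 each of the most different, 1-library, CpG-poor and footprint-rich starts. The members and lists were chosen with earlier results of these data known. Alternatives changed the window, overlap, peak list, peak number, start, coding distance and transcript support. Python 3.11.15, numpy 2.4.6, pandas 2.3.3 and matplotlib 3.10.9 were used.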

Additional observations from a re-analysis of the deposited data

How the results depend on the processing

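The number of lncRNA starts open in both libraries was 662. It was 417 with the stricter peak list and 364 (of 3163) for genes of support level 1 or 2. Leaving out a library gives the count of the other alone, 737 without replicate 2 and 1380 without replicate 1. These cannot be below 662 and do not measure how stable it is. For replicate 1 the count of 737 became 456 with the stricter list and 393 by support, and for replicate 2 the count of 1380 became 822 with its peak number cut to near that of replicate 1, and 730 by support. Fewer starts were examined under the support setting, where the share open in both was 11.5%. The difference between coding and lncRNA shares, 46.0 percentage points, was 42.9 with the stricter list and ran from 42.3 to 45.9 with 1 library left out (42.3 without replicate 1). Windows of 250 and 1000 bp, an overlap of 100 bp, any transcript start and a coding distance of 5000 bp kept the 3 counts within 1.5 times, and no setting turned a direction. Starts also over 1000 bp from other coding-gene transcripts and RefSeq mRNA starts, an alternative chosen after seeing the data, gave 573, 641 and 1252 and a difference of 46.8. The median log2 difference between libraries ran from 0.67 to 0.80. No paired analysis was possible because both libraries belong to 1 group. Read depth is unknown, so a start without a peak is one where none was called, not one shown to be closed.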

Other observations

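Other GENCODE types measured in the same way, over 1000 bp from coding starts, differed in their share of open starts. Of 470 genes typed processed_transcript, 91 (19.4%) were open in both libraries, 21.3% in replicate 1 and 31.5% in replicate 2. Of 2940 genes typed TEC, which await experimental support, 110 (3.74%) were open in both, 4.25% in replicate 1 and 8.3% in replicate 2. Among 27 sense_overlapping genes, 4 were open in both.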
